A study of Homo sapiens with 12 samples.

Results

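The BCL2 family of genes sets whether a cell under stress opens its mitochondria and dies. Its pro-survival members, the guardians, hold the pore-forming proteins BAX and BAK in check, and its BH3-only members are small killers that are made or activated under stress and bind the guardians, or the pore formers themselves. Melanoma cells are known to depend on several guardians at once, among them MCL1 and, in the melanocyte lineage, BCL2A1, and inhibitors of BET bromodomain proteins have been reported to shift the balance between guardians and BH3-only genes in several tumours. Here 4 guardians (BCL2, BCL2L1, MCL1, BCL2A1) and 6 BH3-only genes (BCL2L11, BBC3, PMAIP1, BMF, BIK, HRK) were taken by gene symbol from the 56609 symbols of the deposited count table. All 10 were found and all 10 were tested, among 21698 genes with enough counts. BCL2A1 and BIK met the count minimum, about 0.339 counts per 1000000 counts of the library before scaling, in all 6 wild-type libraries, whereas 1 of 6 knockout libraries reached it for BCL2A1 and 0 of 6 did for BIK. Levels below are CPM, counts per 1000000 counts of the scaled library.

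RNA was sequenced from A375, an established human melanoma cell line, in 4 groups of 3 replicates. The groups were wild-type cells in DMSO, wild-type cells in 500 nM JQ1 (a small molecule that displaces BET proteins from acetylated chromatin), cells in which MAPKAPK2 had been knocked out with CRISPR/Cas9 in DMSO, and the same knockout in 500 nM JQ1, all for 48 h. MAPKAPK2 encodes MK2, a kinase downstream of p38 that acts on proteins controlling the stability of messenger RNAs, and the series asked how its loss bears on resistance to BET inhibitors. The labels do not say whether the knockout line is a clone or a pool, nor whether the wild-type cells carried Cas9 or a control guide, so the gene and the history of the line cannot be told apart, and they do not say whether replicates were separate cultures, so p-values measure only the spread between these libraries.

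Libraries held 25316565 to 34594025 estimated counts. MAPKAPK2 itself stood at 89.6 ± 2.20 CPM (DMSO) and 117 ± 4.31 CPM (JQ1) in wild type, and at 12.4 ± 1.15 CPM (DMSO) and 14.4 ± 1.61 CPM (JQ1) in the knockout (mean ± SD, n = 3), and all 6 knockout libraries lay below all 6 wild-type libraries. Of 8 melanocyte lineage markers, SOX10, MITF and S100B carried nearly all of a summed level of 460 to 766 CPM, while PMEL, MLANA, TYR, TYRP1 and DCT, which mark pigmented cells, averaged at most 1.18 CPM in any group. Summed markers of keratinocytes (0.0812 to 2.28 CPM, KRT1 at 0 in every library), blood cells (0.702 to 1.38 CPM, HBB at 0 in every library) and endothelium (0.812 to 2.35 CPM) were near 0. Knockout JQ1 replicate 3 stood apart: its counts differed from those of its 2 replicates by a chi-square of 23.8 and 25.1 per degree of freedom, against 3.21 to 7.05 for the other replicate pairs. It also held the largest share of its counts, 14.6%, in 4 abundant small structural RNAs (9.42% to 12.3% elsewhere), so the counts and values that rest on it are also given without it.

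Per length of transcript, MCL1 was the most abundant guardian and BCL2L1 came second in all 4 groups. In wild-type DMSO the level of MCL1 was 150 ± 0.94 CPM per kilobase of its median coding transcript, that of BCL2L1 34.7 ± 0.40, that of BCL2 2.33 ± 0.30 and that of BCL2A1 1.66 ± 0.13 (SD, n = 3). Among the BH3-only genes the level per kilobase was 13.0 ± 0.84 for BMF, 11.4 ± 0.39 for PMAIP1, 5.96 ± 0.15 for BCL2L11, 3.11 ± 0.47 for BBC3, 0.642 ± 0.17 for BIK and 0.299 ± 0.058 for HRK. The order of the BH3-only genes depends on the length used. By the longest transcript BMF ranked after PMAIP1 and BBC3 in every group. By the shortest BCL2L11 ranked above both BMF and PMAIP1 in every group (37.3 ± 0.95, 17.8 ± 1.15 and 14.5 ± 0.50 in wild-type DMSO), and HRK above BIK (1.62 ± 0.32 and 0.642 ± 0.17). The first and second places, MCL1 and BCL2L1, did not depend on it.

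**Figure D1:**
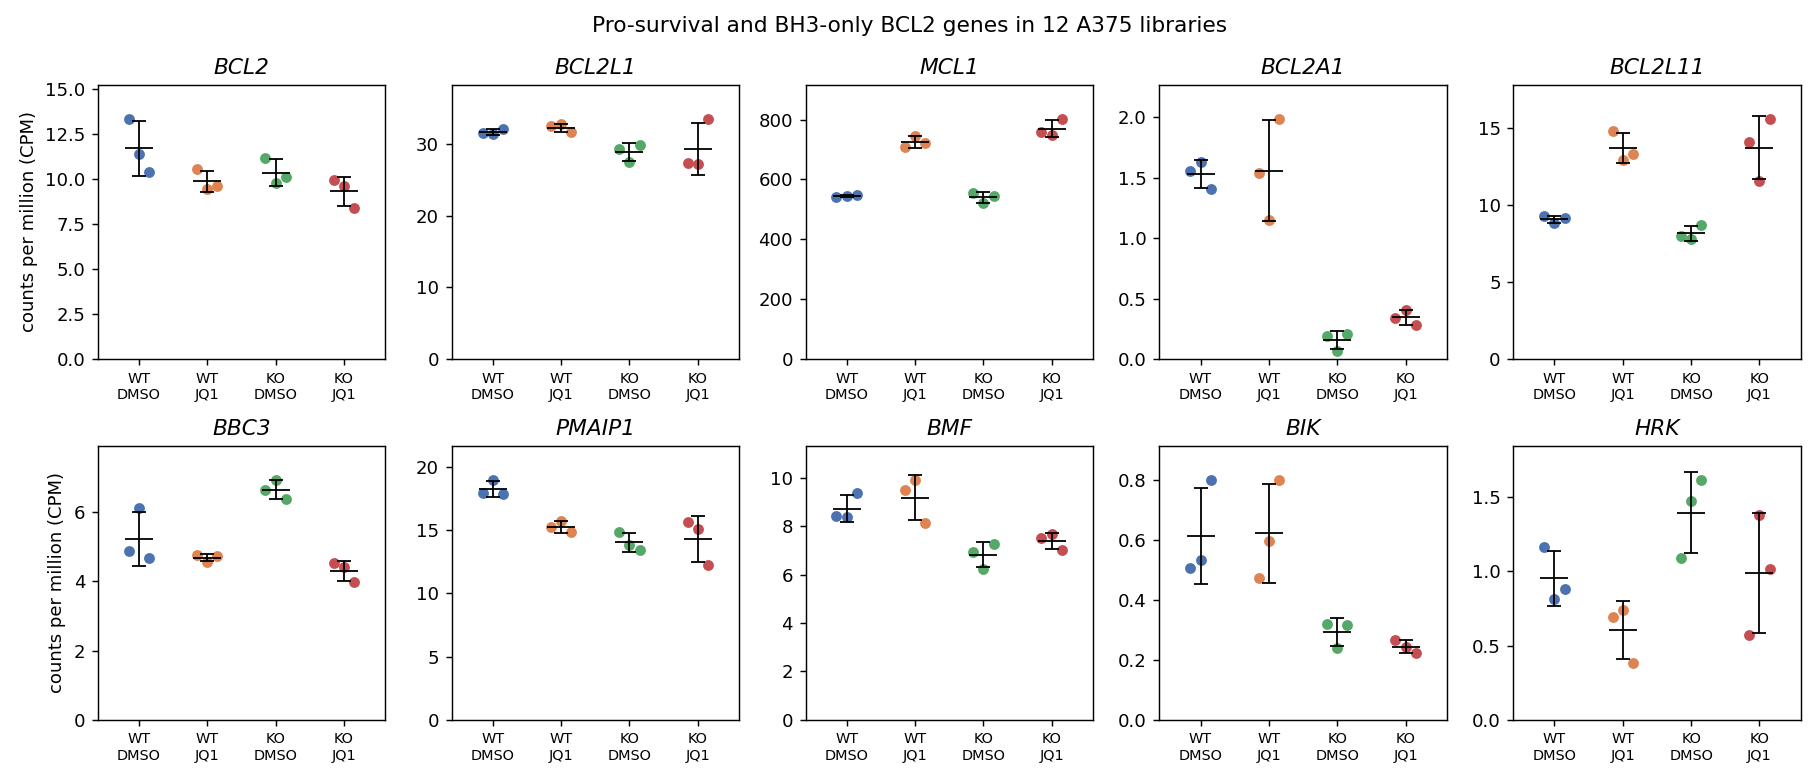
Level of each of the 10 genes in CPM (y axis, linear, from 0) in the 12 libraries (points), by group (x axis; WT, wild type; KO, MAPKAPK2 knockout), with the mean and SD of 3 replicates as bars. MCL1 and BCL2L11 stand higher in both JQ1 groups than in both DMSO groups, whereas BCL2A1 and BIK stand lower in all 6 knockout libraries than in all 6 wild-type libraries.

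Few of the 10 genes changed in any comparison. A bulk library averages over the culture, so fewer cells with a transcript and less of it per cell cannot be told apart. In wild-type cells JQ1 changed 3 of 10 at an adjusted p under 0.05 (edgeR), with MCL1 and BCL2L11 higher and PMAIP1 lower, where the share over all tested genes was 33.1% (16.9% higher, 16.2% lower). In knockout cells JQ1 also changed 3 of 10, with MCL1 and BCL2L11 higher and BBC3 lower, against 34.4% of all genes (16.7% higher, 17.8% lower). These counts are close to the share over all genes. Knockout against wild type changed 2 of 10 in DMSO, BCL2A1 and PMAIP1, both lower, where 7.92% of all genes passed (3.47% higher, 4.44% lower). In JQ1 it changed 2 of 10, BCL2A1 and BIK, again both lower, where 8.57% passed (3.01% higher, 5.56% lower). BCL2A1 and BIK met the count minimum almost only in wild-type libraries, so a knockout call on either could hardly have been higher. The median log2 fold change of the 10 was 0.02 for JQ1 in wild type (-0.03 over all genes), 0.03 for JQ1 in knockout (0.00), -0.16 for the knockout in DMSO (0.00) and -0.11 for the knockout in JQ1 (0.00). Read by replicates alone, the groups compared did not overlap for 4 of 10 genes with JQ1 in wild type (50.4% of all genes), 4 with JQ1 in knockout (42.3%), 7 for the knockout in DMSO (29.6%) and 5 for the knockout in JQ1 (23.1%). Both knockout counts and both knockout medians include BCL2A1 and BIK, whose direction the count filter nearly fixed. Without knockout JQ1 replicate 3 the calls on the 10 genes were 3 with JQ1 in each genotype (38.0% and 33.6% of all genes), 3 with the knockout in DMSO (11.9%) and 2 with the knockout in JQ1 (10.5%), where BCL2L1 took the place of BIK.

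**Figure D2:**
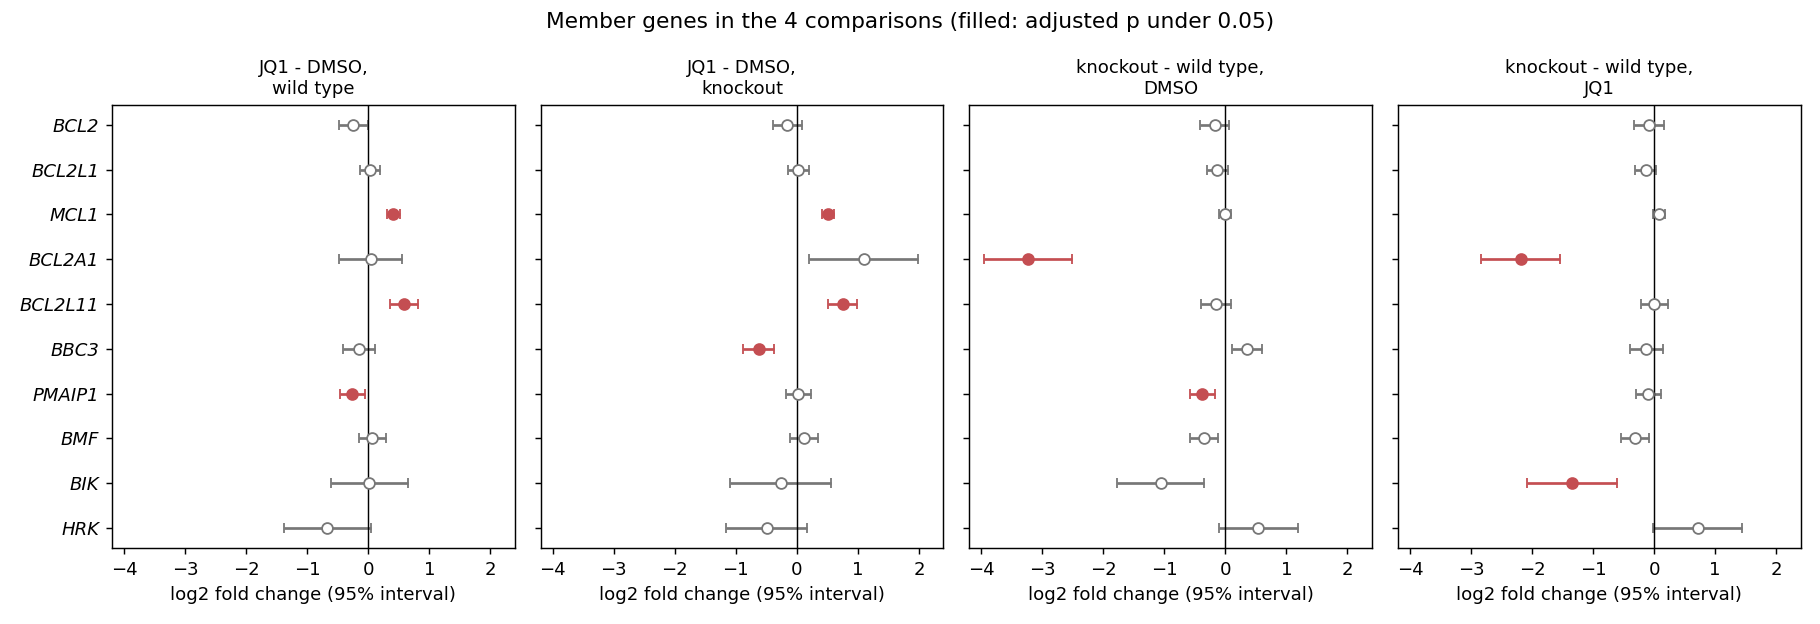
Log2 fold change (x axis) with its 95% interval for each gene (y axis) in the 4 comparisons; filled points passed an adjusted p of 0.05. MCL1 and BCL2L11 lie to the right of 0 in both JQ1 panels and near 0 in both knockout panels, and BCL2A1 lies far to the left in both knockout panels.

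MCL1 encodes a short-lived guardian that holds BIM, NOXA and BAK; its gene spans chr1:150574551-150579738 on the minus strand (GRCh38). Wild-type DMSO libraries read 542, 544 and 549 CPM and wild-type JQ1 libraries 710, 747 and 720 CPM. Knockout DMSO libraries read 556, 520 and 546 CPM and knockout JQ1 libraries 758, 750 and 801 CPM. Every JQ1 library lay above every DMSO library, whatever the genotype. JQ1 raised MCL1 by 1.33-fold in wild-type cells (log2 0.41, SE 0.05, adjusted p = 8.57e-06, edgeR) and by 1.42-fold in knockout cells (log2 0.51, SE 0.05, adjusted p = 9.96e-07). Without knockout JQ1 replicate 3 the second value was 0.48 (adjusted p = 4.42e-07). The knockout itself left MCL1 within a log2 difference of -0.11 to 0.09 in DMSO and of -0.01 to 0.18 in JQ1 (95% intervals, adjusted p = 0.936 and 0.329). In JQ1 the replicates did not overlap, at 710 to 747 CPM in wild type and 750 to 801 CPM in knockout.

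BCL2L1, the gene of BCL-xL (chr20:31664452-31723989, minus strand), did not pass in any comparison. It read 31.6, 31.4 and 32.1 CPM in wild-type DMSO and 32.5, 32.8 and 31.7 CPM in wild-type JQ1. Knockout DMSO libraries read 29.4, 27.5 and 29.9 CPM, and knockout JQ1 libraries 27.4, 27.2 and 33.5 CPM, the last being the library that stood apart. The 95% interval of its JQ1 log2 difference was -0.14 to 0.19 in wild type and -0.15 to 0.20 in knockout, where the value was 0.02 and became -0.08 without that library. Against wild type the knockout differed by -0.13 (SE 0.08, adjusted p = 0.393) in DMSO, where the replicates did not overlap, and by -0.14 (SE 0.08, adjusted p = 0.375) in JQ1. Without knockout JQ1 replicate 3 the JQ1 value became -0.24 and passed the threshold (adjusted p = 0.0194). In the GENCODE annotation 43.0% of the exonic bases of BCL2L1 are shared with ABALON, an RNA from the opposite strand listed at 4.48 to 5.39 CPM as group means, and because use of the strand in counting is not stated, reads of the shared bases may be split between them.

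BCL2, the founding member and a guardian that binds BIM and BAX (chr18:63123346-63320128, minus strand), read 13.3, 11.4 and 10.4 CPM in wild-type DMSO and 10.6, 9.43 and 9.61 CPM in wild-type JQ1. Knockout libraries read 11.2, 9.79 and 10.1 CPM in DMSO and 9.94, 9.62 and 8.39 CPM in JQ1. All 4 groups overlapped their neighbours. The JQ1 log2 difference was -0.24 (SE 0.11, adjusted p = 0.106) in wild type and -0.16 (adjusted p = 0.318) in knockout, and the knockout differences were -0.17 (adjusted p = 0.436) in DMSO and -0.09 (adjusted p = 0.744) in JQ1. None of these passed. Without knockout JQ1 replicate 3 the JQ1 value in knockout was -0.083 and the knockout value in JQ1 -0.014. Scaled by library totals alone the JQ1 value in wild type was -0.37 and did pass (adjusted p = 0.0189).

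BCL2A1 encodes BFL-1, a guardian that the transcription factors NF-kappaB and, in melanocytes, MITF are known to induce; its gene lies at chr15:79960889-79971446 on the minus strand. It had the largest difference of the 10. These 2 stretches of its RefSeq promoter window (GRCh38.p14, minus strand, printed 5′ to 3′) are shown because they hold the matches found there, with each match in capitals: an ATF4-type composite element (TGATGNAA) that begins 63 bases before the RefSeq start, and an E-box of the MITF type (CATGTG) that begins 25 bases before it.
BCL2A1 chr15:79971241-79971270: atattataaagTGATGCAAacagaaattcc
BCL2A1 chr15:79971204-79971233: tccatgtatcatCATGTGtcataactcagt
Searched on both strands, TGATGNAA occurs in 3.14% and CATGTG in 9.42% of 35116 RefSeq promoter windows of 250 bases. Neither the E-box CACGTG nor the NF-kappaB consensus was matched in this window. Both motifs are also in the window of HRK, whose knockout differences did not pass (0.54 in DMSO and 0.71 in JQ1, adjusted p = 0.361 and 0.249, edgeR). The part of these motifs in the level of either gene was not tested. GENCODE places both stretches inside an exon of a BCL2A1 transcript that starts further upstream.

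In wild-type cells BCL2A1 read 1.55, 1.63 and 1.40 CPM in DMSO (52, 46 and 51 counts) and 1.54, 1.15 and 1.98 CPM in JQ1 (49, 31 and 67 counts). In knockout cells it read 0.192, 0.0687 and 0.211 CPM in DMSO (6, 2 and 6 counts) and 0.343, 0.406 and 0.285 CPM in JQ1 (9, 10 and 9 counts). The highest knockout library lay below the lowest wild-type library. The knockout held 10.4% of the wild-type level in DMSO (14 against 149 counts, exact 95% interval 5.55% to 18.0%) and 21.4% in JQ1 (28 against 147 counts, 13.7% to 32.2%), intervals that cover counting error only. In the fit the knockout lowered BCL2A1 9.45-fold in DMSO (log2 -3.24, SE 0.34, adjusted p = 2.08e-05, edgeR) and 4.56-fold in JQ1 (log2 -2.19, SE 0.30, adjusted p = 0.000244), and the JQ1 value was -2.06 without knockout JQ1 replicate 3 (adjusted p = 0.00109). Because BCL2A1 entered the test through its wild-type libraries, the count filter nearly fixed the direction of these knockout calls. With JQ1, BCL2A1 differed by 0.04 (adjusted p = 0.919) in wild type and by 1.09 (SE 0.42, 95% interval 0.19 to 1.99, adjusted p = 0.0579) in knockout, where the replicates did not overlap and the value without knockout JQ1 replicate 3 was 1.22 (adjusted p = 0.0584). Leaving out wild-type JQ1 replicate 2 or 3, which are not part of that comparison but share its estimate of spread, brought the adjusted p to 0.0487 and 0.0494.

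BCL2L11 encodes BIM, a BH3-only protein that binds every guardian, is induced by forkhead factors and is held down by MAP kinase signalling in BRAF-mutant melanoma. Its gene spans chr2:111119378-111168447 on the plus strand. The 250 bases before its RefSeq start (GRCh38.p14, plus strand) are shown because the gene rose in both genotypes and the window holds a forkhead motif (GTAAACA, in capitals), which begins 223 bases before the start.
BCL2L11 chr2:111120664-111120913: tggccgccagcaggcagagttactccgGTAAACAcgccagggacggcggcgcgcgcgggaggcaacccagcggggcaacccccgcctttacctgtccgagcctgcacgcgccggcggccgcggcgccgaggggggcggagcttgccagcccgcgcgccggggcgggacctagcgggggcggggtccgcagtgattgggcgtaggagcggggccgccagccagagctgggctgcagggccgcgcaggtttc
GTAAACA occurs in 2.98% of the RefSeq promoter windows on either strand. The same window also holds 3 matches to the GC box GGGCGG, which 42.6% of windows hold.

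BCL2L11 read 9.27, 8.82 and 9.13 CPM in wild-type DMSO and 14.8, 12.9 and 13.3 CPM in wild-type JQ1. It read 7.95, 7.79 and 8.71 CPM in knockout DMSO and 14.1, 11.5 and 15.5 CPM in knockout JQ1. All 6 JQ1 libraries lay above all 6 DMSO libraries. JQ1 raised BCL2L11 by 1.51-fold in wild type (log2 0.59, SE 0.11, adjusted p = 0.000685, edgeR) and by 1.69-fold in knockout (log2 0.75, SE 0.11, adjusted p = 8.84e-05), and by 0.65 on the log2 scale in knockout without replicate 3 of its JQ1 group (adjusted p = 0.000211). The knockout difference was -0.16 (95% interval -0.39 to 0.08, adjusted p = 0.504) in DMSO, where the replicates did not overlap. In JQ1 it was 0.01 (-0.22 to 0.24, adjusted p = 0.983), or -0.096 without knockout JQ1 replicate 3. Of the exonic bases of BCL2L11, 10.9% are shared with MIR4435-2HG, a long non-coding RNA on the opposite strand. Its group means were 22.4 CPM in DMSO and 19.4 CPM in JQ1 in wild type, and 25.3 and 18.0 CPM in knockout. Because use of the strand in counting is not stated, reads of the shared bases may be split between them. The part of such reads in the BCL2L11 values was not tested.

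BBC3 encodes PUMA, a BH3-only killer induced by several kinds of stress; its gene lies at chr19:47220822-47232766 on the minus strand. The following 151 bases of its RefSeq promoter window (GRCh38.p14, minus strand) are shown because they hold an E-box (CACGTG), which begins 232 bases before the start, and an AP-1 motif (TGANTCA), which begins 113 bases before it, both in capitals.
BBC3 chr19:47232767-47232917: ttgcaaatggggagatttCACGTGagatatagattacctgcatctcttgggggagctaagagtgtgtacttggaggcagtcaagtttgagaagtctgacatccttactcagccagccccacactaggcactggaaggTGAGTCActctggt
CACGTG occurs in 6.34% and TGANTCA in 6.57% of the RefSeq promoter windows.

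BBC3 read 6.64, 6.94 and 6.39 CPM in knockout DMSO and 4.53, 4.42 and 3.99 CPM in knockout JQ1, with no overlap. It read 4.89, 6.13 and 4.67 CPM in wild-type DMSO and 4.77, 4.56 and 4.73 CPM in wild-type JQ1, which overlap. JQ1 lowered BBC3 1.54-fold in knockout cells (log2 -0.63, SE 0.12, adjusted p = 0.000953, edgeR), and the value was -0.57 without knockout JQ1 replicate 3 (adjusted p = 0.00388). In wild type the JQ1 difference was -0.15 (95% interval -0.41 to 0.11, adjusted p = 0.375). The level of BBC3 was highest in knockout DMSO, where all 3 libraries lay above all 3 of wild-type DMSO, yet that difference did not pass (log2 0.35, SE 0.12, adjusted p = 0.0918). Without wild-type DMSO replicate 2, the highest of its group, it was 0.49 and passed (adjusted p = 0.0306). In JQ1 the knockout difference was -0.12 (adjusted p = 0.653), though the replicates did not overlap, or -0.068 without knockout JQ1 replicate 3.

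PMAIP1 encodes NOXA, a BH3-only protein that binds mainly MCL1 and BFL-1 and hastens the breakdown of MCL1; its gene lies at chr18:59899948-59904306 on the plus strand. Wild-type libraries read 17.9, 19.0 and 17.9 CPM in DMSO and 15.2, 15.7 and 14.8 CPM in JQ1. Knockout libraries read 14.9, 13.8 and 13.4 CPM in DMSO and 15.6, 15.1 and 12.3 CPM in JQ1. Wild-type DMSO stood above the other 3 groups, which overlapped each other. Against it PMAIP1 was 1.20-fold lower with JQ1 (log2 -0.26, SE 0.09, adjusted p = 0.0434, edgeR) and 1.30-fold lower with the knockout (log2 -0.38, SE 0.09, adjusted p = 0.0198); these 2 comparisons share the wild-type DMSO libraries. In knockout cells the JQ1 difference was 0.03 (95% interval -0.18 to 0.23, adjusted p = 0.869), and in JQ1 the knockout difference was -0.09 (-0.29 to 0.11, adjusted p = 0.655). These became 0.13 (adjusted p = 0.249) and 0.011 (adjusted p = 0.961) without knockout JQ1 replicate 3. The calls against wild-type DMSO were near the threshold. The JQ1 call passed under 6 of 22 alternative settings and was lost without any 1 of the 6 libraries compared (adjusted p from 0.0771 to 0.142) and, through the shared estimate of spread, without knockout DMSO replicate 1, 2 or 3 (0.0552, 0.0656 and 0.0633) or knockout JQ1 replicate 2 (0.0511). With all libraries kept, the JQ1 call was also lost with DESeq2 (adjusted p = 0.0741) and limma on the authors' signal (0.0794). In edgeR it was lost with DESeq2 size factors (0.0570), without the count filter (0.112) and with the authors' factors as offsets (0.0542). The knockout call passed under 15 of 22 and was lost without wild-type DMSO replicate 1, 2 or 3 (0.0675, 0.101 and 0.0622) or knockout DMSO replicate 2 or 3 (0.0924 and 0.107). Limma on the authors' signal lost the knockout call too (0.0581).

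BIK, an endoplasmic reticulum BH3-only gene at chr22:43110748-43129712 on the plus strand, was rare in every library. It read 0.507, 0.531 and 0.797 CPM in wild-type DMSO (17, 15 and 29 counts) and 0.471, 0.594 and 0.799 CPM in wild-type JQ1 (15, 16 and 27 counts). Knockout libraries read 0.321, 0.240 and 0.316 CPM in DMSO (10, 7 and 9 counts) and 0.267, 0.243 and 0.222 CPM in JQ1 (7, 6 and 7 counts). All 6 knockout libraries lay below all 6 wild-type libraries. The knockout held 47.1% of the wild-type level in DMSO (26 against 61 counts, exact 95% interval 28.6% to 75.7%) and 38.7% in JQ1 (20 against 58 counts, 22.0% to 65.3%). The difference passed in JQ1 (log2 -1.35, SE 0.35, adjusted p = 0.0255, edgeR) and did not in DMSO (log2 -1.06, SE 0.33, adjusted p = 0.0658). BIK entered the test only through its wild-type libraries, so the count filter nearly fixed the direction of such a call. The JQ1 call was lost without knockout JQ1 replicate 1, 2 or 3 (adjusted p = 0.0588, 0.0634 and 0.0688) and without wild-type JQ1 replicate 2 or 3 (0.0596 and 0.122). DESeq2 (adjusted p = 0.0841) and an edgeR fit of only the groups compared (0.0708) lost it too. With JQ1 the differences were 0.02 (adjusted p = 0.980) in wild type and -0.26 (adjusted p = 0.666) in knockout, or -0.19 without knockout JQ1 replicate 3.

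BMF, a BH3-only protein tethered to the cytoskeleton until stress frees it (chr15:40087890-40108892, minus strand), read 8.41, 8.39 and 9.37 CPM in wild-type DMSO and 9.48, 9.91 and 8.14 CPM in wild-type JQ1. In knockout cells it read 6.93, 6.25 and 7.27 CPM in DMSO and 7.50, 7.67 and 7.03 CPM in JQ1, so that all 6 knockout libraries lay below all 6 wild-type libraries. Neither knockout difference passed: -0.36 (SE 0.11, adjusted p = 0.0559) in DMSO and -0.31 (SE 0.11, adjusted p = 0.0977) in JQ1. The DMSO difference did pass without knockout JQ1 replicate 3 (adjusted p = 0.0368) or wild-type JQ1 replicate 3 (0.0448), with library totals alone (0.0285) and with only the 2 groups in the fit (0.0443). The JQ1 differences were 0.07 (adjusted p = 0.660) in wild type and 0.12 (adjusted p = 0.451) in knockout. BMF differed by 0.16 with JQ1 in knockout and by -0.27 with the knockout in JQ1 when knockout JQ1 replicate 3 was left out. In the GENCODE annotation 8.46% of the exonic bases of BMF are shared with BMF-AS1, an RNA from the opposite strand. Reads of these bases may be split between them.

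HRK, a BH3-only gene known mainly from neurons (chr12:116856144-116881441, minus strand), was low and variable. Its wild-type libraries read 1.16, 0.814 and 0.880 CPM in DMSO and 0.691, 0.742 and 0.385 CPM in JQ1. Its knockout libraries read 1.09, 1.48 and 1.61 CPM in DMSO and 0.571, 1.38 and 1.01 CPM in JQ1. The JQ1 differences were -0.67 (SE 0.33, adjusted p = 0.142) in wild type, where the replicates did not overlap, and -0.50 (SE 0.31, adjusted p = 0.243) in knockout. The knockout differences were 0.54 (adjusted p = 0.361) in DMSO and 0.71 (adjusted p = 0.249) in JQ1. None passed, and without knockout JQ1 replicate 3 HRK differed by -0.52 with JQ1 in knockout and by 0.69 with the knockout in JQ1. The RefSeq promoter window of HRK holds the same pair of motifs as that of BCL2A1, TGATGNAA beginning 75 bases and CATGTG 44 bases before the start.

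Whether the genotype altered the JQ1 response was tested by the interaction term. In edgeR 0 of 10 genes passed an adjusted p of 0.05, where 0.134% of all tested genes did (0.0323% higher and 0.101% lower). DESeq2 also called 0, but it gave an adjusted p to 13622 genes only. BCL2A1, BIK and HRK were not among them, so DESeq2 could not have called these. At an unadjusted p under 0.05 there were 3 of 10, where 8.37% of all genes had such a p. Leaving out knockout JQ1 replicate 3 gave the same counts of 0 and 3, against 0.395% and 13.1% of all genes. The 3 in the full fit were BBC3 (interaction -0.48, unadjusted p = 0.0145, adjusted p = 0.456, edgeR), BCL2A1 (1.05, unadjusted p = 0.0470, adjusted p = 0.588, edgeR) and PMAIP1 (0.28, unadjusted p = 0.0488, adjusted p = 0.592, edgeR). So the fall of BBC3 with JQ1 in knockout cells was not shown to differ from the response in wild type. For the genes that rose in both genotypes, the 95% interval of the interaction was -0.04 to 0.24 for MCL1 and -0.17 to 0.49 for BCL2L11.

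**Figure D3:**
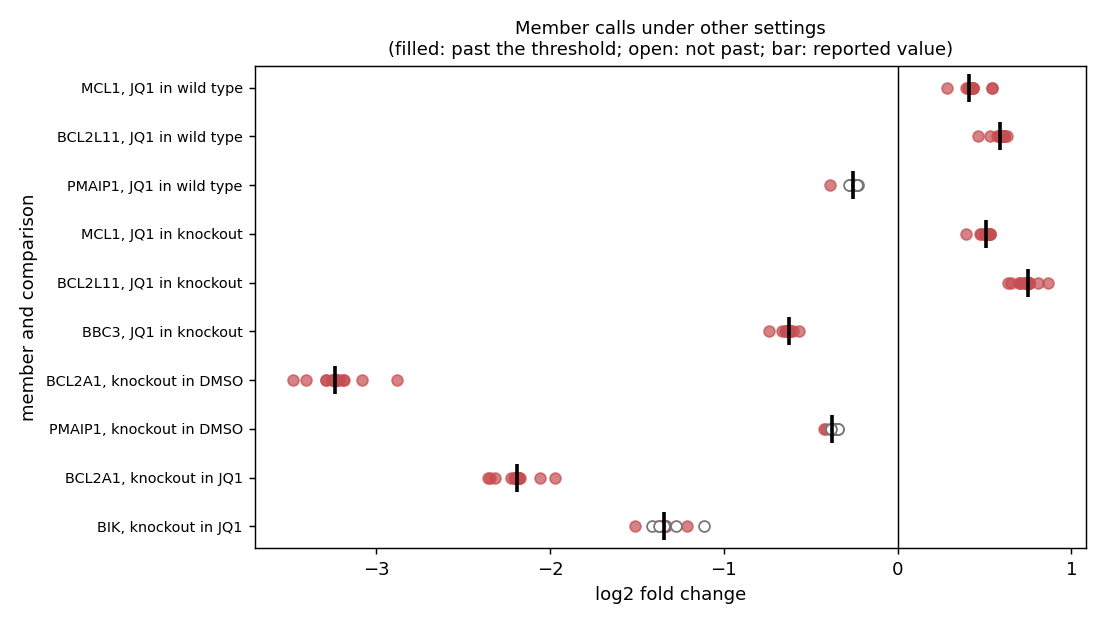
Log2 fold change (x axis) of each call on the 10 genes (y axis) under 22 alternative settings (points) beside the reported value (black bar); filled points passed the threshold and open points did not. The calls of MCL1, BCL2L11, BBC3 and BCL2A1 are filled throughout, and those of PMAIP1 and BIK include open points.

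The rest of the mitochondrial apoptosis pathway was read from 9 lists of 48 genes, 45 of them tested (not BCL2L10, BCL2L15 and BIRC7). With JQ1 in wild type 13 passed as higher and 4 as lower, where 16.9% and 16.2% of all genes did (median log2 0.14, -0.03 over all genes). In knockout 14 passed as higher and 7 as lower with JQ1, against 16.7% and 17.8% of all genes (median 0.09, 0.00 over all genes). The knockout gave 6 higher and 4 lower in DMSO (median 0.00), against 3.47% and 4.44%, and 1 higher and 6 lower in JQ1 (median 0.03), against 3.01% and 5.56%. Without knockout JQ1 replicate 3 the called genes numbered 26 with JQ1 in wild type (38.0% of all genes), 22 with JQ1 in knockout (33.6%), 12 with the knockout in DMSO (11.9%) and 10 in JQ1 (10.5%). In edgeR 0 of 45 interactions passed, where 0.134% of all genes did, with 8 at an unadjusted p under 0.05 (8.37% of all genes), and limma on the authors' signal also called 0. Without that library edgeR called 1 (0.395% of all genes). DESeq2, which called 1.13% of all genes, called 2: BCL2L13 (-0.40, adjusted p = 0.000259, against 0.0874 in edgeR) and DDIT3 (-0.73, adjusted p = 0.0253, against 0.203 in edgeR).

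**Figure D4:**
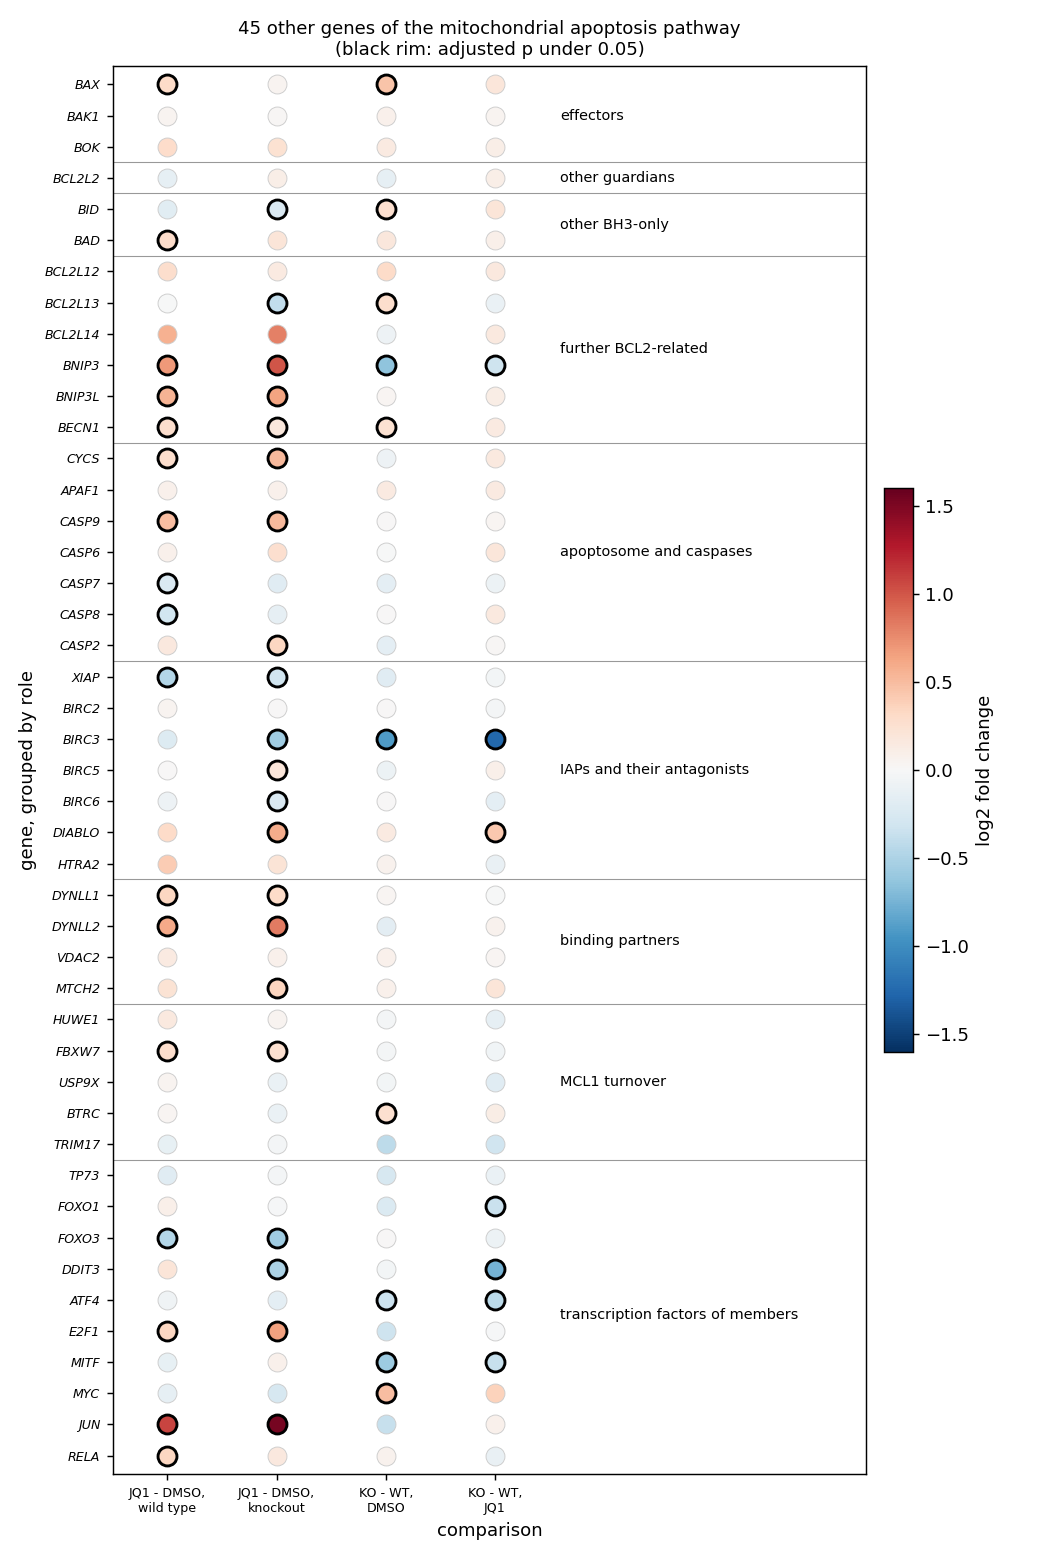
Log2 fold change (colour) of the 45 tested pathway genes (y axis, by role) in the 4 comparisons (x axis); a black rim marks an adjusted p under 0.05. BNIP3, BNIP3L, CASP9, CYCS, DYNLL1, DYNLL2, FBXW7 and JUN were among the genes that rose with JQ1 in both genotypes, and BIRC3 was lower in the knockout under both treatments.

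Among the pore-forming effectors BAX was higher in the knockout than in wild type in DMSO (35.7 ± 4.26 against 25.9 ± 2.15 CPM, log2 0.46, SE 0.10, adjusted p = 0.00714, edgeR). It also rose with JQ1 in wild type (32.0 ± 2.93 CPM, log2 0.30, adjusted p = 0.0264), a call lost without replicate 1 of wild-type DMSO (0.119) or wild-type JQ1 replicate 1 (0.0740) or 2 (0.118), and with library totals alone (0.17, adjusted p = 0.171). Limma on the authors' signal (adjusted p = 0.124) and the authors' factors as offsets in edgeR (0.0871) also lost this call. BAX did not pass with JQ1 in knockout (0.04, adjusted p = 0.798) or with the knockout in JQ1 (0.20, adjusted p = 0.260). BAK1, the other main effector, had differences of 0.02 to 0.08 in the 4 comparisons and BOK, another relative, of 0.11 to 0.29, and none passed. The guardian BCL2L2 (BCL-w) lay between -0.14 and 0.10 and passed in none. With knockout JQ1 replicate 3 left out BOK differed by 0.066 with JQ1 in knockout and by -0.080 with the knockout in JQ1, BAK1 by -0.025 and 0.0055, BAX by 0.0033 and 0.16, and BCL2L2 by 0.077 and 0.072, none of which passed.

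The remaining BH3-only genes moved by small amounts. BID, the link from death receptors to mitochondria, was higher in the knockout in DMSO (0.27, adjusted p = 0.0252) and lower with JQ1 in knockout (-0.24, adjusted p = 0.0147), comparisons that share the knockout DMSO libraries. The first call was lost without wild-type DMSO replicate 1 (0.0613) or 2 (0.126) or knockout DMSO replicate 1 (0.0508) or 3 (0.110) or with library totals alone (0.0549), and the second without knockout DMSO replicate 3 (0.0727) or knockout JQ1 replicate 2 (0.0587). BID differed by -0.18 with JQ1 in wild type (adjusted p = 0.0663, and 0.0423 without knockout JQ1 replicate 3) and by 0.21 with the knockout in JQ1 (adjusted p = 0.0924). BAD, which growth factor signalling silences by phosphorylation, rose with JQ1 in wild-type cells (0.29, adjusted p = 0.0156), a call lost without replicate 2 of wild-type DMSO (0.0686) or wild-type JQ1 replicate 1 (0.0592) or 2 (0.0684), and with library totals alone (0.16, adjusted p = 0.115). In the other 3 comparisons BAD differed by 0.10 to 0.20 and did not pass, except that the value for JQ1 in knockout passed without knockout JQ1 replicate 2 (adjusted p = 0.0280). With replicate 3 of that group left out, BAD differed by 0.13 with JQ1 in knockout and 0.021 with the knockout in JQ1, and BID by -0.27 and 0.18, of which the first BID value passed (adjusted p = 0.00936).

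Of 6 tested BCL2-related genes outside these classes, 3 were higher with JQ1 in wild type (16.9% of all genes), and 3 higher and 1 lower in knockout (16.7% and 17.8%). BNIP3 and BNIP3L, mitochondrial proteins of hypoxia and mitophagy, rose in wild type (0.69 and 0.55, adjusted p = 1.09e-05 and 4.49e-05) and in knockout (1.01 and 0.64, adjusted p = 2.80e-07 and 9.82e-06). BNIP3 stood at 107 ± 4.07 CPM in wild-type DMSO and 68.4 ± 8.41 CPM in knockout DMSO, so it was also lower in the knockout (-0.64, adjusted p = 0.000126). The knockout difference in JQ1 was smaller (-0.33, adjusted p = 0.0174) and was lost without knockout JQ1 replicate 2 (0.0692) or wild-type JQ1 replicate 2 (0.0667) or 3 (0.0644). BCL2L13, a mitophagy receptor, was higher in the knockout in DMSO (0.28, adjusted p = 0.00443) and lower with JQ1 in knockout (-0.39, adjusted p = 5.85e-05), again against shared libraries. With knockout JQ1 replicate 3 left out, the JQ1 values in knockout were 1.04 for BNIP3, 0.70 for BNIP3L and -0.39 for BCL2L13, the knockout value of BNIP3 in JQ1 was -0.30, and all 4 passed. BECN1, an autophagy gene with a BH3 motif, rose with JQ1 in wild-type cells (0.29, adjusted p = 0.00311), a call lost with library totals alone (0.16, adjusted p = 0.0810).

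Downstream of the mitochondria, JQ1 in wild type left 2 of 7 apoptosome and caspase genes higher and 2 lower (33.1% of all genes called), and JQ1 in knockout 3 higher and 0 lower (34.4%). CASP9, the initiator caspase, rose in both genotypes (0.49, adjusted p = 0.00247, and 0.52, adjusted p = 0.00166), as did CYCS, the gene of cytochrome c (0.28, adjusted p = 0.00994, and 0.52, adjusted p = 7.65e-05). The CYCS call in wild type was lost without wild-type DMSO replicate 3 (0.0619) and with library totals alone (0.173). CASP8, the death receptor caspase, was lower with JQ1 in wild type (-0.31, adjusted p = 0.0143), a call lost without replicate 1 (0.0524) or 3 (0.0830) of wild-type DMSO or wild-type JQ1 replicate 3 (0.0547). The CASP8 call was also lost with limma on the authors' signal (adjusted p = 0.115) and with the authors' factors as offsets in edgeR (0.0843). CASP2 rose with JQ1 in knockout (0.34, adjusted p = 0.00109). All 3 JQ1 calls in knockout held without knockout JQ1 replicate 3, at 0.36 for CASP9 (adjusted p = 0.00326), 0.57 for CYCS and 0.30 for CASP2.

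The inhibitors of apoptosis and their antagonists gave 0 higher and 1 lower of 7 with JQ1 in wild type, where 33.1% of all genes were called, and 2 higher and 3 lower in knockout (34.4%). These counts were 2 and 2 in wild type and 1 and 3 in knockout without knockout JQ1 replicate 3. XIAP, which blocks caspases directly, fell in both (-0.47, adjusted p = 0.000878, and -0.31, adjusted p = 0.0131), the second call being lost without knockout DMSO replicate 2 (0.0715) or knockout JQ1 replicate 1 (0.0618). DIABLO, whose product SMAC relieves that block, rose with JQ1 in knockout (0.60, adjusted p = 0.000786). It was also higher in the knockout in JQ1 (0.43, adjusted p = 0.0264), a call lost without knockout JQ1 replicate 1 (0.113) or wild-type JQ1 replicate 1, 2 or 3 (0.0749, 0.0556 and 0.109). That knockout call on DIABLO was also lost with limma on the authors' signal (adjusted p = 0.0701) and with the authors' factors as offsets in edgeR (0.0526). BIRC3 encodes cIAP2 and, like BCL2A1, is a known NF-kappaB target. Wild-type cells held 12.4, 12.7 and 12.8 CPM in DMSO and 10.5, 11.2 and 10.9 CPM in JQ1. Knockout cells held 6.51, 6.97 and 6.74 CPM in DMSO and 5.03, 4.67 and 3.96 CPM in JQ1. The knockout lowered it in DMSO (-0.91, SE 0.10, adjusted p = 2.71e-05, edgeR) and in JQ1 (-1.26, SE 0.10, adjusted p = 1.71e-06), and JQ1 lowered it in knockout (-0.57, adjusted p = 0.000606). The last 2 values were -1.16 and -0.47 without knockout JQ1 replicate 3, where DIABLO (0.63 with JQ1, 0.46 with the knockout) and XIAP (-0.39) also passed.

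Among partners that bind proteins of the BCL2 family, the dynein light chains that tether BIM and BMF rose with JQ1. DYNLL2, the partner of BMF, was higher by 0.60 in wild type (adjusted p = 2.43e-06) and 0.83 in knockout (adjusted p = 9.07e-08), and DYNLL1, the partner of BIM, by 0.34 (adjusted p = 0.000475) and 0.31 (adjusted p = 0.000909). MTCH2, a mitochondrial receptor of BID, was higher with JQ1 in knockout (0.35, adjusted p = 0.0105, but 0.0703 without knockout DMSO replicate 2 and 0.0921 with library totals alone). Of 5 genes that govern the turnover of MCL1, 1 passed with JQ1 in each genotype (33.1% and 34.4% of all genes). It was FBXW7, a ubiquitin ligase subunit for MCL1, higher by 0.29 in wild type (adjusted p = 0.0113) and 0.26 in knockout (adjusted p = 0.0197). These calls were lost without replicate 1 of wild-type DMSO (0.0502) or wild-type JQ1 replicate 1 (0.0545), and without knockout DMSO replicate 1 (0.0788) or 3 (0.0557) or knockout JQ1 replicate 2 (0.0946). With library totals alone both were lost (0.16, adjusted p = 0.167, and 0.15, adjusted p = 0.210). The wild-type call was also lost with limma on the authors' signal (adjusted p = 0.116) and with the authors' factors as offsets in edgeR (0.0782). Fitting only the groups compared lost the knockout call (0.0884). BTRC, another such subunit, was higher in the knockout in DMSO (0.26, adjusted p = 0.0267) and BECN1 likewise (0.24, adjusted p = 0.0326), but both calls were lost without wild-type DMSO replicate 2 (0.123 and 0.160), among other libraries, and with library totals alone (0.0773 and 0.105). Without the count filter BTRC and BECN1 stood at adjusted p = 0.0605 and 0.0520 in edgeR, and with limma on the authors' signal at 0.0534 and 0.0550. The JQ1 values in knockout were 0.79 for DYNLL2, 0.38 for DYNLL1, 0.44 for MTCH2 and 0.32 for FBXW7 without knockout JQ1 replicate 3, and all 4 passed.

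Transcription factors known to act on the 10 genes were read from a list of 10. With JQ1, 3 were higher and 1 lower in wild type and 2 higher and 2 lower in knockout, shares close to the 33.1% and 34.4% of all genes called. The knockout counts were 2 and 4 without knockout JQ1 replicate 3. JUN, an AP-1 subunit, rose from 5.23 ± 0.617 to 11.1 ± 1.68 CPM in wild type (1.08, adjusted p = 6.47e-05) and from 4.06 ± 0.770 to 11.7 ± 1.17 CPM in knockout (1.53, adjusted p = 2.89e-06). FOXO3, a forkhead inducer of BCL2L11, fell in both genotypes (-0.47, adjusted p = 3.48e-05, and -0.57, adjusted p = 4.74e-06). The part of FOXO3 and of the forkhead motif in the level of BCL2L11 was not tested. RELA, which encodes the p65 subunit of NF-kappaB, rose by 0.34 in wild-type cells given JQ1 (adjusted p = 0.0106). That call was lost without wild-type DMSO replicate 1 (adjusted p = 0.0506) and on library totals alone (0.21, adjusted p = 0.0842). E2F1 was higher with JQ1 in knockout (0.65, adjusted p = 0.000104). Its level was also higher with JQ1 in wild type, without overlap (35.8 ± 1.08 CPM in DMSO and 45.4 ± 1.68 CPM in JQ1). JUN (1.45), FOXO3 (-0.62) and E2F1 (0.50, adjusted p = 1.46e-05) also passed with JQ1 in knockout when knockout JQ1 replicate 3 was left out. These are transcript levels and say nothing of the factors' activity.

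With the knockout, 1 factor was higher and 2 lower in DMSO, and 0 were higher and 4 lower in JQ1, where 7.92% and 8.57% of all genes were called. MITF, which drives BCL2A1 in melanocytes, read 42.9, 42.1 and 44.1 CPM in wild-type DMSO and 30.9, 25.6 and 30.0 CPM in knockout DMSO, with no overlap. The knockout lowered it in DMSO (-0.58, SE 0.08, adjusted p = 0.000323, edgeR) and in JQ1 (-0.37, SE 0.08, adjusted p = 0.0102), the latter at 0.0534 with only the 2 groups in the fit. ATF4, the factor of the integrated stress response, was lower in both treatments (-0.35, adjusted p = 0.00438, and -0.44, adjusted p = 0.000774), and its partner DDIT3 in JQ1 (-0.75, adjusted p = 0.00108). The knockout values in JQ1 were -0.30 for MITF, -0.50 for ATF4 and -0.78 for DDIT3 without knockout JQ1 replicate 3, and all 3 passed. MYC was higher in the knockout in DMSO (0.50, adjusted p = 0.00835). The part of MITF and ATF4 in the lower level of BCL2A1 was not tested.

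The genes whose levels ran most like those of MCL1 and BCL2L11, the members raised by JQ1 in both genotypes, were sought among 11250 genes whose mean reached 5 CPM. For MCL1 they were DDIT4, a stress-induced inhibitor of mTOR signalling (Pearson r = 0.997 of log2 CPM over the 12 libraries), and GDF11, a secreted ligand of the TGF-beta family (0.992). For BCL2L11 they were TBC1D7, a subunit of the TSC complex (0.987), and AC244197.3 (0.982). Over the 11 libraries without knockout JQ1 replicate 3 these were 0.996, 0.990, 0.985 and 0.979. The 12 libraries share 4 group means, so such values describe the same JQ1 step and carry no test.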

How the data were processed

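RNA sequencing libraries of 12 A375 samples were compared. Per the labels' protocols, RNA was depleted of ribosomal RNA and made into directional libraries; per the submitters' processing notes, the tools were Trim Galore, cutadapt, FastQC, MultiQC, kallisto and DESeq2, with GRCh38.p10. The deposited tables hold estimated counts per gene symbol, which need not be whole, and the authors' normalized signal, each a count divided by a factor of the gene and library; the authors' signal served only in alternatives. The titles call the cultures without drug untreated and the treatment field says DMSO, which was followed.

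Estimated counts were rounded, which the planned count test needed, filtered with filterByExpr, scaled by TMM (factors 0.926 to 1.06) and fitted over all 12 libraries with a term per group by edgeR 4.0.16 quasi-likelihood tests (limma 3.58.1, R 4.3.3), with Benjamini-Hochberg adjustment over 21698 genes and a threshold of 0.05. The script was tested on simulated data. CPM are counts per 1000000 of the scaled library; SE is that of the log2 fold change, and exact 95% intervals of count ratios are binomial. Alternatives were DESeq2 1.42.0, other scalings, filters, thresholds and fits, the replicate block, the authors' signal with limma (pseudocount 1) and each library left out; the authors' factors as offsets, and the counts per list and correlations without knockout JQ1 replicate 3, were added after seeing the data.

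Named were the 10 genes, MAPKAPK2, the effectors, other guardians and other BH3-only genes, and up to 3 genes per list and comparison with the smallest adjusted p past 0.05. For likeness, the 2 genes with the highest r were named for members past the threshold with JQ1 in both genotypes. BIRC3 and MITF are given by library because of their known links to BCL2A1, a choice made after their values were seen. Members and lists were chosen with earlier results of these data known. Gene positions and transcript lengths are those of GENCODE 29 by symbol; promoters are those of RefSeq (8 of 10 genes matched, not MCL1 and BIK). A pair of listed genes is not reported here and was left out of the lists and their counts.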

Additional observations from a re-analysis of the deposited data

How the results depend on the processing

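Under 22 alternatives (21 planned and the authors' factors as offsets chosen after seeing the data), MCL1 and BCL2L11 with JQ1 in both genotypes, BBC3 with JQ1 in knockout and BCL2A1 with the knockout in both treatments passed every time. Their log2 ranges were 0.28 to 0.54 and 0.39 to 0.53 for MCL1 (wild type, knockout), 0.46 to 0.63 and 0.64 to 0.86 for BCL2L11, -0.74 to -0.57 for BBC3, and -3.48 to -2.88 (DMSO) and -2.36 to -1.97 (JQ1) for BCL2A1. Fitting only the groups compared does not apply to the interaction and was not run for it. Of 10 genes, the knockout in DMSO called 1 with limma on the authors' signal (4.22% of all genes). It called 1 at an adjusted p of 0.01 (4.27%), against 2 reported (7.92%). The knockout in JQ1 called 1 with DESeq2 (9.40% of all genes), 1 with only the groups compared (4.66%) and 1 at an adjusted p of 0.01 (4.45%), against 2 (8.57%). With each library left out the counts ran from 2 to 3 (JQ1 in wild type), 3 to 4 (JQ1 in knockout), 1 to 3 (knockout in DMSO), 1 to 2 (knockout in JQ1) and 0 to 0 (interaction). In the same order, the shares over all genes ran from 25.4% to 38.0%, 28.3% to 33.6%, 4.83% to 11.9%, 5.41% to 10.5% and 0.0354% to 0.395%. Over the 45 pathway genes, JQ1 in wild type called 26 without knockout JQ1 replicate 3 (38.0% of all genes), against 17 reported (33.1%). The cause of these moves was not tested, apart from the stricter threshold.

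Signs turned only for values near 0 that had not passed, and the cause was not tested. Scaling by library totals alone moved the median of all genes by -0.13 for JQ1 in wild type and -0.12 in knockout. It gave, with JQ1 in wild type, -0.10 for BCL2L1, -0.085 for BCL2A1, -0.060 for BMF, -0.11 for BIK and -0.087 for BAK1, and in knockout -0.093 for BCL2L1, -0.087 for PMAIP1, -0.077 for BAX, -0.10 for BAK1 and -0.011 for BCL2L2. MCL1 with the knockout in DMSO was 0.010 with DESeq2, 0.0047 with its size factors in edgeR, 0.087 with limma on the authors' signal and 0.087 with the authors' factors. BCL2L11 with the knockout in JQ1 was -0.028 by library totals, -0.0054 without the count filter, -0.12 with limma and -0.13 with the authors' factors. Interactions turned to -0.0036 (BCL2, limma), 0.011 (BCL2L1, library totals), 0.0022 (BCL2L1, at least 10 counts in 6 libraries), -0.021 (MCL1, limma) and -0.013 (MCL1, authors' factors).

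Leaving out a library gave ranges through 0 for JQ1 in wild type of BCL2A1 (-0.17 to 0.21), BIK (-0.21 to 0.27) and BAK1 (-0.0072 to 0.11), and for JQ1 in knockout of BCL2L1 (-0.082 to 0.079), PMAIP1 (-0.041 to 0.13), BAX (-0.018 to 0.15) and BAK1 (-0.025 to 0.058). It did so for the knockout in DMSO of MCL1 (-0.021 to 0.033), and for the knockout in JQ1 of BCL2L11 (-0.096 to 0.12), PMAIP1 (-0.16 to 0.011), BAK1 (-0.015 to 0.10) and BOK (-0.080 to 0.22). Interaction ranges were -0.021 to 0.17 for BCL2, -0.11 to 0.051 for BCL2L1, -0.034 to 0.11 for BMF and -0.12 to 0.44 for HRK.

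The replicate numbers showed no pairing of the samples: 2 of 18 same-numbered pairs correlated above 0.1 (-0.29 to 0.21, other pairs -0.30 to 0.22). Such values, centred within groups of 3, cannot tell whether same-numbered samples were handled together. With the replicate block the calls on the 10 genes stayed at 3, 3, 2, 2 and 0. The shares over all genes were 31.3%, 32.9%, 6.85%, 7.23% and 0.0968%. Depth limits BCL2A1, BIK and HRK, whose libraries held from 2 to 67 counts for the first and from 6 to 29 for the second.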

Other observations

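The authors' normalized signal gives each gene its own factor in each library, and for BMF that factor varied more within a group than the scaling used above. Within the knockout JQ1 group the count divided by the signal ran from 0.694 to 1.20, and within the wild-type JQ1 group from 0.768 to 1.25. On that scale BMF stood at 164 to 283 in knockout JQ1 (240 ± 66.0, SD, n = 3) and at 221 to 354 in wild-type JQ1, whereas its CPM ran from 7.03 to 7.67 and from 8.14 to 9.91. With these factors as offsets in edgeR the JQ1 log2 difference of BMF was 0.30 in wild type (adjusted p = 0.298) and 0.34 in knockout (adjusted p = 0.246), against 0.07 and 0.12 reported. BMF was not alone in this. The factor of BCL2L11 ran from 0.858 to 1.39 in wild-type DMSO and from 0.794 to 1.27 in knockout DMSO. That of BCL2 ran from 0.771 to 1.18 in wild-type JQ1. The JQ1 calls on BCL2L11 passed under all 22 alternatives, these factors included.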
